A study of Mus musculus with 8 samples.

Results

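The genes described are 32 that encode the enzymes and regulators of sterol and fatty acid synthesis, in a mouse pre-B cell line. They were chosen by name: a gene was a member if non-control probes of the array carried its symbol, and it was represented by its probe with the highest mean signal over the 8 arrays. All 32 of 32 were on the array, which holds 34715 gene names, and all 32 passed the filter on dim probes that left 20629 genes to test. They comprise 17 enzymes of the path from acetyl-CoA to cholesterol, 6 genes of its control by SREBP and of sterol transport, and 9 genes that build, elongate or desaturate fatty acids.

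The cells are the line 1676, pre-B cells of the genotype SLP-65-/- LAT-/-, which lack 2 adaptor proteins of receptor signalling and grow in interleukin-7 (IL-7). There were 4 groups of 2 arrays: cells with a vector for hsa-miR-125b-1 kept 24 h without IL-7, cells with a control vector kept 24 h without IL-7, miR-125b cells in excess IL-7, and control cells in excess IL-7. All groups share the genotype, a retroviral vector, selection with 1 µg/ml puromycin and medium with 7.5% FCS. Per the study's design text, the 2 arrays of a group come from independent experiments with separately generated clones, so each group rests on few clones of 1 line. The labels give withdrawal of IL-7 as the way to induce differentiation. The comparisons ask how miR-125b and withdrawal each alter the RNA of these genes.

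Cholesterol is made from acetyl-CoA through the mevalonate pathway, squalene and lanosterol, and the same acetyl-CoA feeds fatty acid synthesis. Most genes of both paths are activated by the transcription factors SREBP-1 and SREBP-2, which SCAP escorts to the Golgi for cleavage when membrane sterol is low and which INSIG proteins hold in the endoplasmic reticulum when sterol is high. Growing lymphocytes raise both paths to build membrane, and oxysterols that accumulate when sterol is plentiful activate the LXR receptors, which drive sterol efflux.

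The mature microRNA is shown because its overexpression defines the miR-125b groups. The mouse sequence from RefSeq (GRCm38.p6) is the same from Mir125b-1 on chromosome 9 and Mir125b-2 on chromosome 16, and its seed, bases 2 to 8, is in capitals. Its own level is not analysed here.
mmu-miR-125b-5p: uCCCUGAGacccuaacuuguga

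Promoters of Hmgcs1, Mvd and Nsdhl are shown because these enzymes fell on withdrawal and were higher with miR-125b in the results below. Of the motifs marked here, Hmgcs1 holds both, while Mvd and Nsdhl hold CCAAT alone. Each holds 300 bases around the RefSeq start, most of them before it (GRCm38.p6): Hmgcs1 at chr13:119690101-119690400 on the plus strand, Mvd at chr8:122443373-122443672 on the minus strand and Nsdhl at chrX:72918271-72918570 on the plus strand. Capitals mark CCAAT, the letters NF-Y binds, on either strand, and TCACNCCAC, a form of the sterol regulatory element.
Hmgcs1: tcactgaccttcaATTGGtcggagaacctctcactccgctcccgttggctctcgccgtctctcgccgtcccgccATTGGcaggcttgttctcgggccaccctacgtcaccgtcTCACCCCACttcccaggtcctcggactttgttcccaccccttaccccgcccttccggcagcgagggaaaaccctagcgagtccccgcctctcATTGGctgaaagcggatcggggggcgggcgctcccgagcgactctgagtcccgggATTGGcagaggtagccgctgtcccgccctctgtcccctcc
Mvd: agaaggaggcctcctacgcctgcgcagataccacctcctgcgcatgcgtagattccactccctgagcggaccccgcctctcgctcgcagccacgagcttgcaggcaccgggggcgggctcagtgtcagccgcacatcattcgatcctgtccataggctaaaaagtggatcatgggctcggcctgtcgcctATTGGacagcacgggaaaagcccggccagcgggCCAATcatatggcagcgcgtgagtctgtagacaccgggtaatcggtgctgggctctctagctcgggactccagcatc
Nsdhl: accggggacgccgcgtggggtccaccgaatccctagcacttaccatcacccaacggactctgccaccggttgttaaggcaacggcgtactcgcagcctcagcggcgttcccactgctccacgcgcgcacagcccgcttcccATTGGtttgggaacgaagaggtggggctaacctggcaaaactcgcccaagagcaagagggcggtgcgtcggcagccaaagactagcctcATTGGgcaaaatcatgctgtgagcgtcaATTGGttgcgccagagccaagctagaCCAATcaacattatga

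RefSeq promoters were found for 25 of the 32 members, 33 promoters in all, and 7 members had no entry in the table. On either strand, CCAAT was in 20 of the 33 member promoters, belonging to 19 of the 25 members, against 37.4% of all 32851 promoters of the same length. TCACNCCAC was in 1 member promoter, that of Hmgcs1, where its first base is at -137 from the start, against 1.24% of all promoters. A longer, 10-base form of the sterol regulatory element was in 0 member promoters, against 0.0913% of all, and the E box CACGTG was in 6 member promoters of 5 members (Dhcr7, Hsd17b7, Insig1, Sc5d and Scap), against 7.15% of all. The longer form contains the shorter, so they are not separate motifs. These are letter matches in a short window, and no match says only that the letters are not in that window.

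Between 26585 and 30521 of the 55681 probes on an array (47.7% to 54.8%) exceeded background clearly, 0 spots were saturated, and replicates correlated across genes at r of 0.994 to 0.996. All 4 arrays without IL-7 lay on one slide with one scan and one version of the scanner software, and all 4 with IL-7 on another, so withdrawal cannot be told apart from slide, scan or software version. Vectors were compared within a slide, but position on the slide went with the vector. Without IL-7 miR-125b arrays lay in columns 3 and 4 and control arrays in columns 1 and 2, and with IL-7 miR-125b arrays lay in column 3 and control arrays in column 1, so the effects of vector and of column cannot be told apart. All 11 pre-B markers were well above background on every array. Of the 6 myeloid markers, Itgam, Csf1r and Elane were so on every array, and Cd14, Lyz2 and Mpo on 3, 2 and 1 arrays. Of the T and NK cell markers, Cd3e and Cd4 were well above background on 8 of 8 arrays, and Cd3d, Cd3g and Ncr1 on 0. Cd8a was so on the 4 arrays without IL-7 alone. The part of these markers in the results below was not tested. Summed over the 6 markers of the T and NK cell list, linear levels were 6.39 to 6.47 in miR-125b and 6.47 to 6.64 in control cells without IL-7, and 4.12 to 4.15 in miR-125b and 4.85 to 5.03 in control cells with it. The markers in this sum went opposite ways. With each vector Cd8a was higher without IL-7, and Cd3e and Cd4 were lower, Cd4 only slightly in miR-125b cells. In bulk RNA, fewer cells of a type and less RNA per cell cannot be told apart.

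Levels are given as log2 of the processed signal minus the log2 75th percentile of the array, so 0 is the level at that percentile, and each level is compared only with the same probe on other arrays. Differences are log2 differences with the standard error (SE) of a limma fit over all 8 arrays (n = 2 arrays a group). A gene passed if its p, adjusted by Benjamini and Hochberg across the 20629 genes, was under 0.05.

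Most enzymes of sterol synthesis fell on withdrawal of IL-7 in both cell types, with Fdps, Mvd, Lss, Idi1 and Hmgcs1 among those that fell most. Of the 32 members, 22 fell and 1 rose in miR-125b cells, where 53.9% of all genes passed, and 22 fell and 2 rose in control cells, where 54.8% of all genes passed. Falls alone took in 68.8% of the members in each cell type, against 35.1% of all genes in each (67.7%, 21 of 31, without Elovl7, which was dim without IL-7), while 18.7% of all genes rose in miR-125b and 19.7% in control cells. Members not overlapping between the conditions were 26 below and 2 above in miR-125b cells, where 50.2% of all genes lay below and 30.2% above. In control cells they were 25 below and 4 above, where 49.4% lay below and 31.9% above. Elovl7, for which a difference was built in by the filter, is counted among those below in each cell type. The median member differed by -0.51 in miR-125b and -0.35 in control cells, against -0.15 in miR-125b and -0.14 in control cells over all genes tested. Without Elovl7 the medians were -0.50 in miR-125b and -0.35 in control cells. The calls in control cells rest in part on single arrays. Fewer members passed, and fewer of all genes, when any 1 of the control arrays was left out. With control replicate 1 without IL-7 left out, the median member stood at -0.37, against -0.13 over all genes. With control replicate 1 with IL-7 left out, it stood at -0.35, against -0.12 over all genes. With control replicate 2 without IL-7 left out, it stood at -0.37, against -0.15 over all genes. With control replicate 2 with IL-7 left out, it stood at -0.39, against -0.16 over all genes. After quantile normalization 14 members fell and 4 rose in control cells, where 5761 of all 20629 genes fell and 4911 rose. In miR-125b cells 16 members fell and 2 rose, where 5058 of all genes fell and 4674 rose. Scaling to the array's median instead of the 75th percentile moved the median of all genes to -0.37 in miR-125b and -0.47 in control cells, and the members' median to -0.73 in miR-125b and -0.67 in control cells.

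**Figure D1:**
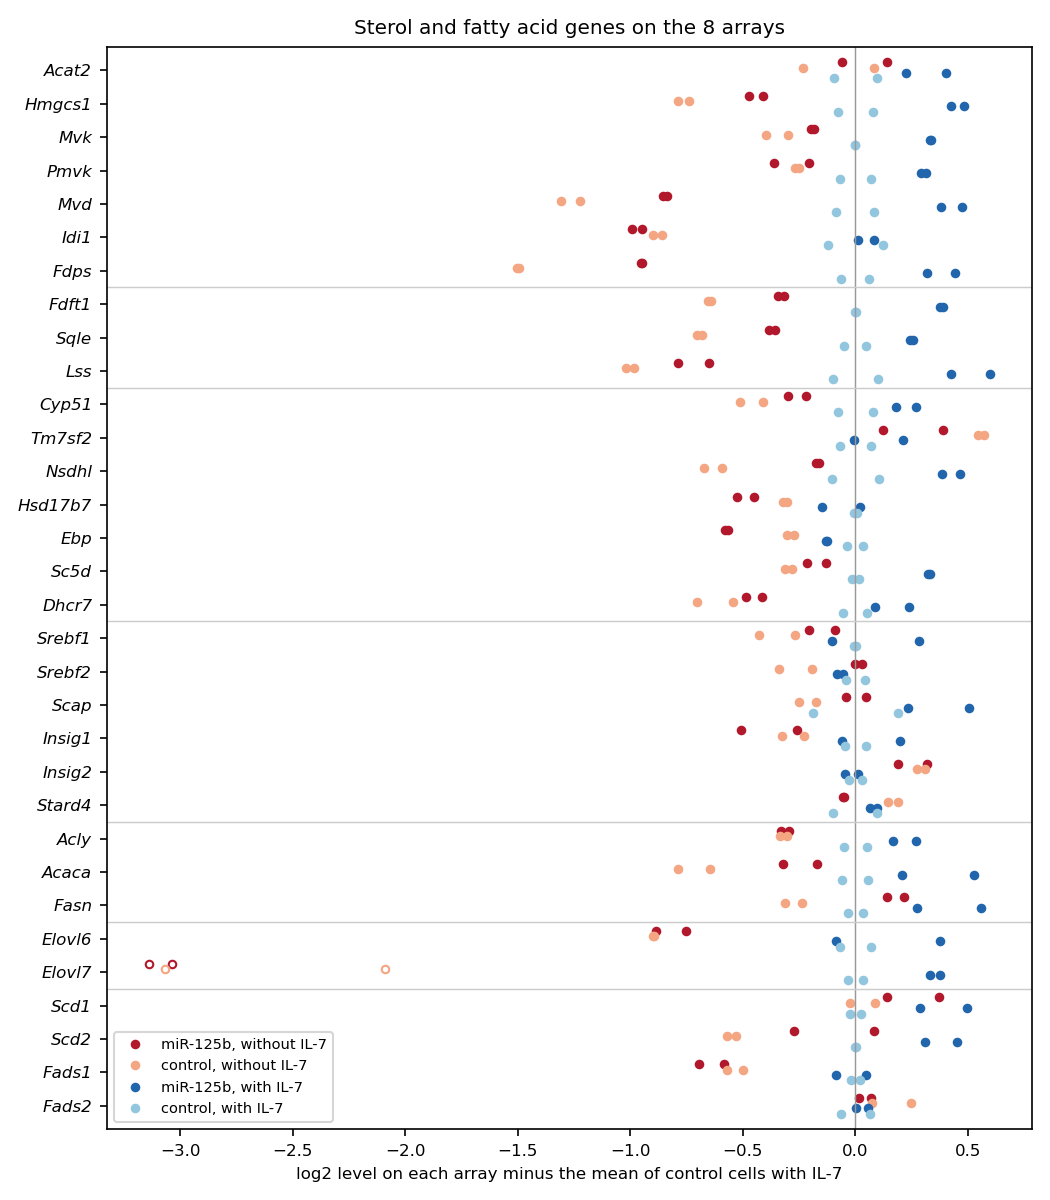
Each point is 1 array: the log2 level of a member minus the mean of control cells with IL-7 (0 on the axis), with miR-125b and control cells without and with IL-7 in 4 colours and grey lines between groups of genes by role. Control cells without IL-7 lie furthest to the left at Fdps, Mvd and Lss among members measured on all arrays, and open points mark Elovl7, which was not well above background on the 4 arrays without IL-7.

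The mevalonate pathway turns acetyl-CoA into farnesyl diphosphate. In each cell type 6 of its 7 genes fell on withdrawal, against 35.1% of all genes. Fdps, the farnesyl diphosphate synthase (probe at chr3:88897549-88897608, mm9), had levels of 5.36 and 5.35 in miR-125b cells and 4.81 and 4.80 in control cells without IL-7, against 6.63 and 6.75 in miR-125b cells and 6.37 and 6.25 in control cells with IL-7. The 4 groups did not overlap at Fdps, with control cells without IL-7 the lowest and miR-125b cells with IL-7 the highest. The difference on withdrawal was -1.33 (SE 0.08, adjusted p = 0.00103) in miR-125b cells and -1.50 (SE 0.08, adjusted p = 0.000638) in control cells.

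Mvd, the mevalonate diphosphate decarboxylase whose promoter is printed above, had levels of 1.18 and 1.20 in miR-125b cells and 0.73 and 0.81 in control cells without IL-7, against 2.42 and 2.51 in miR-125b cells and 2.12 and 1.95 in control cells with IL-7. The arrays without IL-7 all lay below those with it, and on each side the miR-125b arrays lay above the control arrays. Its difference on withdrawal was -1.27 (SE 0.09) in both miR-125b and control cells. Hmgcs1, which makes HMG-CoA, had levels of 5.26 and 5.20 in miR-125b cells and 4.93 and 4.88 in control cells without IL-7, against 6.09 and 6.15 in miR-125b cells and 5.75 and 5.59 in control cells with IL-7. It too kept this order of groups without overlap, and fell by 0.90 (SE 0.08) in miR-125b cells and by 0.76 (SE 0.08) in control cells on the log2 scale. The files place the Hmgcs1 probe on an unplaced part of chromosome 13 in mm9.

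Idi1, the isomerase that makes dimethylallyl diphosphate, also fell on withdrawal. Its levels were 4.30 and 4.35 in miR-125b cells and 4.39 and 4.43 in control cells without IL-7, against 5.30 and 5.38 in miR-125b cells and 5.42 and 5.17 in control cells with IL-7. The arrays without IL-7 lay below those with it, and the vectors overlapped with IL-7. The withdrawal difference was -1.02 (SE 0.10) in miR-125b cells and -0.88 (SE 0.10) in control cells. The kinases Mvk and Pmvk, which phosphorylate mevalonate in turn, fell by 0.53 (SE 0.07) and 0.59 (SE 0.09) in miR-125b cells and by 0.35 (SE 0.07) and 0.26 (SE 0.09) in control cells. The fall of Pmvk in control cells was the less firm one, with adjusted p = 0.047, and its difference was 0.01 after quantile normalization. Acat2, the cytosolic thiolase at the head of the pathway, did not pass in either cell type, at -0.27 (SE 0.15) in miR-125b and -0.07 (SE 0.15) in control cells.

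All 3 genes from farnesyl diphosphate to lanosterol fell in both cell types, where 35.1% of all genes fell in each. Lss, the lanosterol synthase, had levels of 0.75 and 0.61 in miR-125b cells and 0.42 and 0.38 in control cells without IL-7, against 1.82 and 2.00 in miR-125b cells and 1.30 and 1.50 in control cells with IL-7. The 4 groups did not overlap. Lss fell by 1.23 (SE 0.11, adjusted p = 0.00174) in miR-125b cells and by 1.00 (SE 0.11, adjusted p = 0.00166) in control cells. Sqle, the squalene epoxidase, fell by 0.62 (SE 0.07) in miR-125b cells and by 0.69 (SE 0.07) in control cells.

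Fdft1, the squalene synthase, had levels of 2.83 and 2.80 in miR-125b cells and 2.50 and 2.49 in control cells without IL-7, against 3.52 and 3.53 in miR-125b cells and 3.14 and 3.14 in control cells with IL-7. Its replicates were nearly identical in each of the 4 groups, which did not overlap. By this probe it fell by 0.71 (SE 0.06) in miR-125b cells and by 0.65 (SE 0.06) in control cells. A second, dim Fdft1 probe, well above background on 5 of the 8 arrays, went the other way, at 0.69 in miR-125b and 1.54 in control cells. With both probes averaged, Fdft1 differed by 0.45 on withdrawal in control cells.

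Of the 7 genes from lanosterol to cholesterol, 6 fell on withdrawal in each cell type, against 35.1% of all genes. Nsdhl, which removes methyl groups at C4, had levels of 1.85 and 1.84 in miR-125b cells and 1.34 and 1.42 in control cells without IL-7, against 2.48 and 2.40 in miR-125b cells and 2.12 and 1.91 in control cells with IL-7. The arrays of the 4 groups were apart, with control cells without IL-7 lowest. Nsdhl differed by -0.59 (SE 0.09) in miR-125b cells and -0.63 (SE 0.09) in control cells. Dhcr7, which performs the last reduction to cholesterol, differed by -0.61 (SE 0.10) in miR-125b and -0.62 (SE 0.10) in control cells, and Cyp51, the lanosterol demethylase, by -0.48 (SE 0.09) in miR-125b and -0.46 (SE 0.09) in control cells.

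Sc5d, the sterol desaturase, Hsd17b7, a ketoreductase, and Ebp, the sterol isomerase, fell by less. By the probes used, they fell by 0.50, 0.43 and 0.45 in miR-125b cells and by 0.30, 0.31 and 0.29 in control cells, with SE of 0.07 to 0.08. Another Hsd17b7 probe, well above background on 8 of 8 arrays, gave -0.11 in miR-125b and -0.11 in control cells. The medians over all genes were -0.15 in miR-125b and -0.14 in control cells. A dimmer Hsd17b7 probe, also well above background on 8 of 8 arrays, gave -0.34 in miR-125b and -0.27 in control cells. The sign of Ebp in control cells depended on the scaling, at 0.05 after quantile normalization. Tm7sf2, a sterol C14 reductase, and Acat2 were the 2 of the 17 enzymes that did not pass as lower, although the differences of Acat2 were negative in both cell types. Tm7sf2 levels were 2.26 and 1.99 in miR-125b cells and 2.41 and 2.44 in control cells without IL-7, against 2.08 and 1.86 in miR-125b cells and 1.80 and 1.94 in control cells with IL-7. Control arrays without IL-7 lay above those with it, while the miR-125b arrays of the 2 conditions overlapped. Tm7sf2 rose by 0.56 (SE 0.13, adjusted p = 0.0131) in control cells and did not pass in miR-125b cells, at 0.16 (SE 0.13, adjusted p = 0.331). A second Tm7sf2 probe, well above background on 8 of 8 arrays, gave -0.14 in miR-125b and 0.18 in control cells.

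Of the 6 genes of SREBP control and sterol transport, 1 rose and 1 fell on withdrawal in each cell type (16.7% each way). Over all genes, 35.1% fell in each cell type, while 18.7% rose in miR-125b and 19.7% in control cells. Insig2, which retains SCAP and SREBP in the endoplasmic reticulum, had levels of 2.22 and 2.09 in miR-125b cells and 2.17 and 2.21 in control cells without IL-7, against 1.91 and 1.85 in miR-125b cells and 1.93 and 1.87 in control cells with IL-7. The arrays without IL-7 lay above those with it, and the vectors overlapped in each condition. Insig2 rose by 0.27 (SE 0.08, adjusted p = 0.0282) in miR-125b cells and by 0.29 (SE 0.08, adjusted p = 0.0228) in control cells, while scaling to the median put the control difference at -0.04. Insig1, its relative and itself an SREBP target, fell by 0.45 (SE 0.13, adjusted p = 0.0277) in miR-125b cells and stood at -0.28 (SE 0.13, adjusted p = 0.115) in control cells.

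Srebf2, which encodes SREBP-2, had levels of 2.63 and 2.66 in miR-125b cells and 2.29 and 2.44 in control cells without IL-7, against 2.58 and 2.55 in miR-125b cells and 2.67 and 2.59 in control cells with IL-7. Both control arrays without IL-7 lay below the other 6 arrays. Srebf2 fell by 0.27 (SE 0.08, adjusted p = 0.0339) in control cells and stood at 0.08 (SE 0.08, adjusted p = 0.421) in miR-125b cells. The call in control cells was lost in 14 of 18 alternative settings, and a second Srebf2 probe, well above background on 8 of 8 arrays, gave 0.25 in miR-125b and 0.0067 in control cells. Srebf1, which encodes SREBP-1, did not pass, at -0.24 (SE 0.14) in miR-125b and -0.35 (SE 0.14) in control cells. Scap, the escort of SREBP, stood at -0.36 (SE 0.15) in miR-125b and -0.21 (SE 0.15) in control cells, without passing. Stard4, a sterol carrier protein, had no passing difference by the probe used, at -0.13 in miR-125b and 0.17 in control cells, and its second probe gave -0.83 in miR-125b and -0.65 in control cells.

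Of the 9 fatty acid genes, 6 passed as lower on withdrawal in each cell type and 0 as higher. Over all genes 35.1% were lower in each cell type. Without Elovl7, which the filter kept only because it was high with IL-7, 5 of 8 fell. Acaca, the acetyl-CoA carboxylase that commits carbon to fatty acids, had levels of 4.26 and 4.41 in miR-125b cells and 3.79 and 3.94 in control cells without IL-7, against 4.79 and 5.11 in miR-125b cells and 4.64 and 4.52 in control cells with IL-7. The 4 groups did not overlap at Acaca. It fell by 0.61 (SE 0.13) in miR-125b cells and by 0.72 (SE 0.13) in control cells, and its 4 probes shared these signs. One of the other Acaca probes overlaps the one used and is named Gm5182 in one version of the array grid.

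Acly, which makes cytosolic acetyl-CoA from citrate, fell by 0.53 (SE 0.08) in miR-125b cells and by 0.32 (SE 0.08) in control cells. Quantile normalization put the control difference at 0.02. A second Acly probe, well above background on 8 of 8 arrays, gave -0.49 in miR-125b and -0.015 in control cells. Fasn, the fatty acid synthase, did not pass on withdrawal, at -0.23 (SE 0.11) in miR-125b and -0.27 (SE 0.11) in control cells. Elovl6, which elongates saturated chains, had levels of 3.92 and 4.05 in miR-125b cells and 3.91 and 3.91 in control cells without IL-7, against 4.72 and 5.18 in miR-125b cells and 4.87 and 4.74 in control cells with IL-7. Its conditions were apart, and its vectors overlapped with IL-7. It fell by 0.96 (SE 0.16) in miR-125b cells and by 0.90 (SE 0.16) in control cells.

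Elovl7, another elongase, was not well above background on the 4 arrays without IL-7, so its fall is a bound: at least 2.92-fold lower in miR-125b cells and at least 1.50-fold lower in control cells. It was kept by the filter on dim probes through the groups with IL-7 alone, where it was high, so a difference was built in and its p is not given. Its levels were -6.87 and -6.97 in miR-125b cells and -5.92 and -6.90 in control cells without IL-7, against -3.46 and -3.50 in miR-125b cells and -3.80 and -3.87 in control cells with IL-7. The bound sets each dim array at the higher of its own signal and the lowest signal among probes well above background.

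The desaturases divided. Scd2, a stearoyl-CoA desaturase, had levels of 5.83 and 5.48 in miR-125b cells and 5.22 and 5.18 in control cells without IL-7, against 6.20 and 6.06 in miR-125b cells and 5.75 and 5.75 in control cells with IL-7. Within each vector the conditions did not overlap, and Scd2 fell by 0.48 (SE 0.13) in miR-125b cells and by 0.55 (SE 0.13) in control cells. Fads1, the delta-5 desaturase, fell by 0.62 (SE 0.08) in miR-125b and by 0.53 (SE 0.08) in control cells. Scd1 and Fads2, the stearoyl-CoA and delta-6 desaturases, did not pass, with Scd1 at -0.14 (SE 0.12) in miR-125b and 0.03 (SE 0.12) in control cells and Fads2 at 0.01 (SE 0.09) in miR-125b and 0.16 (SE 0.09) in control cells. A second Fads2 probe gave -0.42 in miR-125b and -0.24 in control cells.

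**Figure D2:**
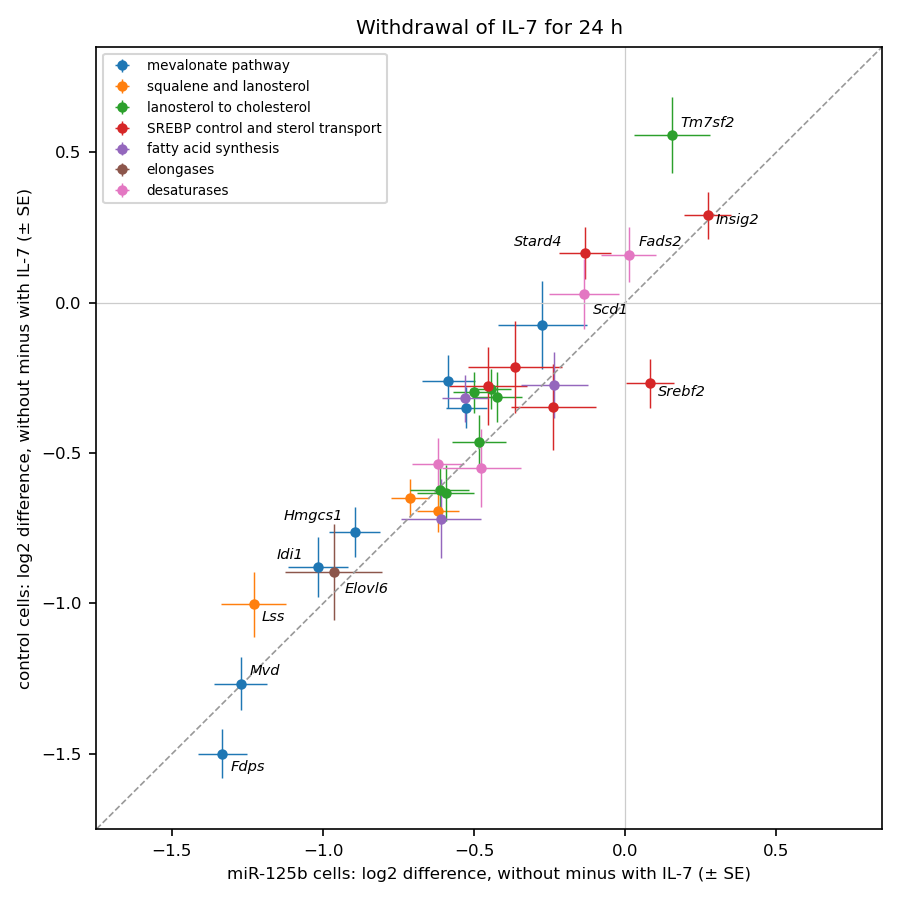
Log2 difference without minus with IL-7 in miR-125b cells (x axis) and control cells (y axis) for 31 members, with bars of 1 SE, colours by role and a dashed line of equal difference. Fdps, Mvd and Lss lie at the lower left and Insig2 and Tm7sf2 at the upper right; Elovl7 is left out because it was dim without IL-7.

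Whether the withdrawal response differed between the vectors was tested as a difference of differences. Of all 20629 genes, 0 passed (0%), and 0 members passed, by limma; at an unadjusted p under 0.05 there were 1213 genes and 2 members. Those 2 members were Srebf2, at 0.35 (95% interval 0.07 to 0.63, adjusted p = 0.765), and Pmvk, at -0.32 (95% interval -0.63 to -0.02, adjusted p = 0.843). For Fdps the difference of differences was 0.17 (95% interval -0.12 to 0.45). The 95% intervals come from the limma fit, and a p above the threshold does not show that the responses were alike.

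In the average over both conditions, 9 of the 17 sterol enzymes were higher with miR-125b and 1 was lower, while few members passed in either condition alone. Averaged over both conditions, 12 members were higher and 1 lower in miR-125b cells (40.6%), where 15.8% of all genes passed, and higher calls alone took in 37.5% of the members and 7.71% of all genes, with 8.12% of all genes lower. Without IL-7, 3 members passed, all higher, where 6.42% of all genes passed (2.85% higher, 3.58% lower). With IL-7, 1 member passed, also higher, where 2.39% of all genes passed (1.18% higher, 1.21% lower). The comparisons of vectors and of conditions use the same arrays and are not independent. The median member differed by 0.16 without IL-7, 0.28 with IL-7 and 0.19 in the average, against -0.02 over all genes in each. Without Elovl7, which has no fold between vectors without IL-7, the medians were 0.17, 0.25 and 0.21.

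Without IL-7 both miR-125b arrays lay above both control arrays for 19 members and below them for 7, against 28.7% and 32.4% of all genes. With IL-7 they lay above for 20 members and below for 2, against 22.9% and 26.4% of all genes. They lay above in both conditions for 16 members and below in both for 1, against 15.5% and 16.5% of all genes. The count of 13 depends on single arrays, since it fell when any 1 of the 8 arrays was left out. The number of all genes that passed fell as well each time. With 1 array left out, the median member stood at 0.16 to 0.22 in the average, against -0.02 to -0.01 over all genes. Scaling to the median moved the median of all genes in the average to 0.13, and the share of higher calls among all calls to 78.9%, against 48.7%; the members then stood at 13 higher and 0 lower.

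**Figure D3:**
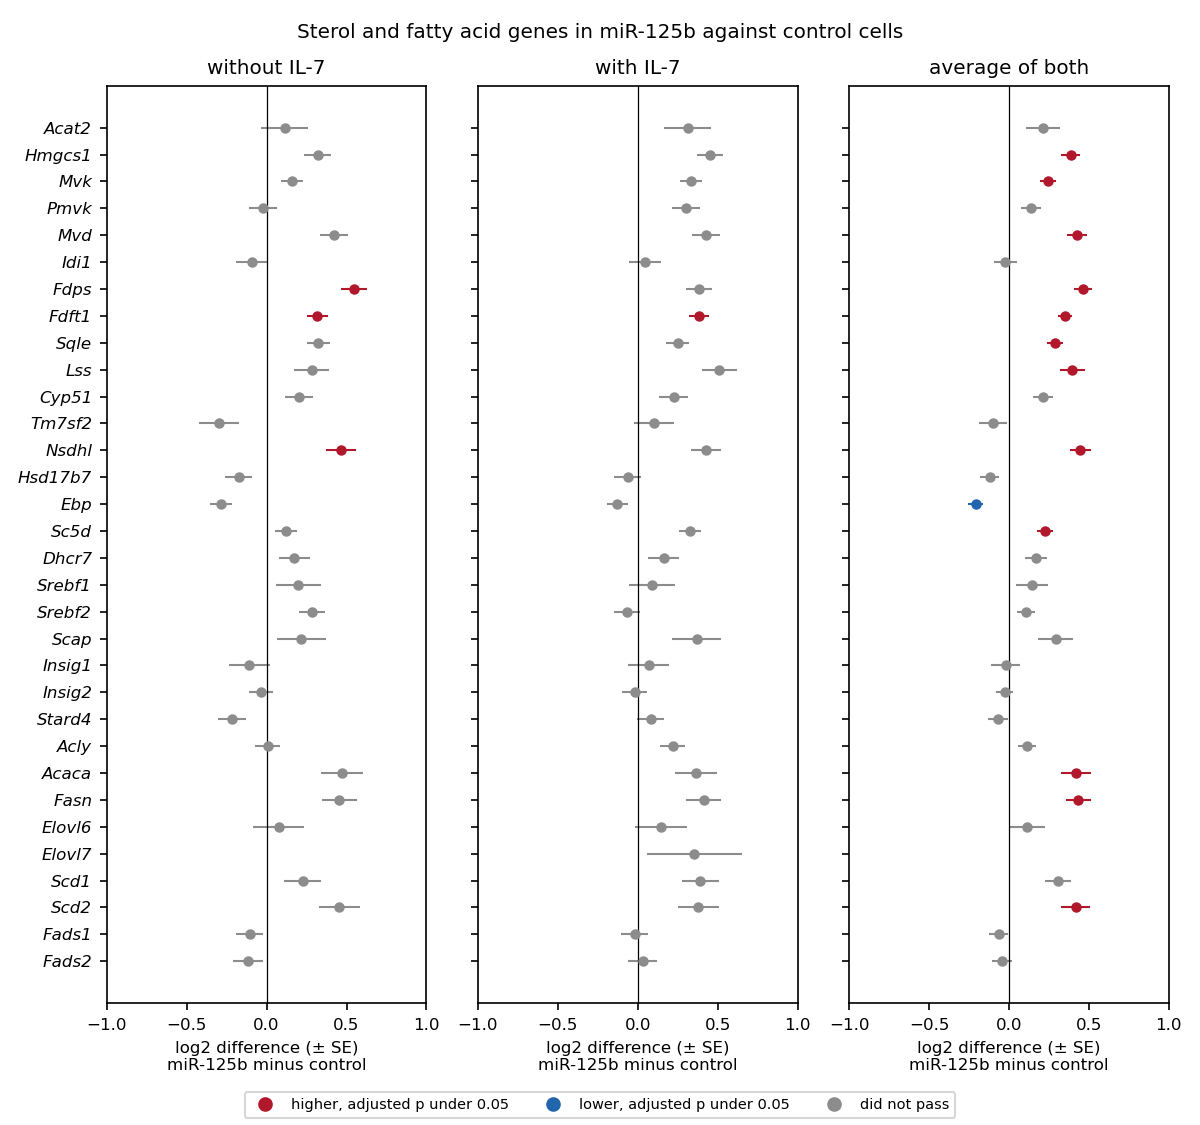
Log2 difference of miR-125b minus control cells with its SE, by gene, without IL-7, with IL-7 and averaged over both. Red points passed as higher and the blue point (Ebp, average) as lower; Elovl7 is drawn with IL-7 alone.

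In the mevalonate pathway 4 of 7 genes were higher with miR-125b in the average, against 7.71% of all genes. Fdps differed by 0.46 (SE 0.06, adjusted p = 0.00875), with 0.55 (adjusted p = 0.0248) without IL-7 and 0.38 (adjusted p = 0.0759) with IL-7, and was higher on 4 of 4 miR-125b arrays than on either control array of the same condition. Mvd differed by 0.42 (SE 0.06, adjusted p = 0.0125) and Hmgcs1 by 0.39 (SE 0.06, adjusted p = 0.0136). Mvk, with levels of 5.04 and 5.03 in miR-125b and 4.83 and 4.93 in control cells without IL-7, and 5.57 and 5.56 in miR-125b and 5.23 and 5.23 in control cells with IL-7, differed by 0.25 (SE 0.05, adjusted p = 0.0262). Idi1 stood at -0.02 (SE 0.07, adjusted p = 0.865). Pmvk stood at 0.14 (SE 0.06) and Acat2 at 0.21 (SE 0.10), without passing.

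All 3 genes from farnesyl diphosphate to lanosterol were higher with miR-125b in the average, against 7.71% of all genes. Fdft1 differed by 0.35 (SE 0.04, adjusted p = 0.00948) and was the one member that passed in each condition, at 0.32 (adjusted p = 0.0454) without IL-7 and 0.38 (adjusted p = 0.0476) with IL-7. Those calls were lost in 12 of 18 alternative settings without IL-7 and in 15 of 18 with IL-7, and leaving out any 1 of the 8 arrays ended both. Its second, dim probe gave -0.59 without IL-7 and 0.26 with it, and the mean of both probes gave -0.14 without IL-7. Lss differed by 0.40 (SE 0.08, adjusted p = 0.0249). Sqle, with levels of 5.08 and 5.10 in miR-125b and 4.78 and 4.76 in control cells without IL-7, and 5.71 and 5.72 in miR-125b and 5.51 and 5.41 in control cells with IL-7, differed by 0.29 (SE 0.05, adjusted p = 0.0185). The plot of levels by array shows the vectors apart for these genes on each side of withdrawal.

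From lanosterol to cholesterol the genes divided. Nsdhl was higher by 0.45 (SE 0.07, adjusted p = 0.0128) in the average and by 0.46 (adjusted p = 0.0465) without IL-7, although its second probe gave -0.13 without IL-7. Sc5d, at 2.62 and 2.54 in miR-125b and 2.44 and 2.47 in control cells without IL-7 and 3.09 and 3.08 in miR-125b and 2.77 and 2.74 in control cells with IL-7, was higher by 0.23 (SE 0.05, adjusted p = 0.0333). Ebp was the 1 member that was lower. Its levels were 5.33 and 5.32 in miR-125b and 5.60 and 5.63 in control cells without IL-7, and 5.77 and 5.77 in miR-125b and 5.93 and 5.86 in control cells with IL-7, a difference of -0.21 (SE 0.05, adjusted p = 0.0388) that did not pass in 11 of the 17 alternative settings. Cyp51 and Dhcr7 stood at 0.21 and 0.17, and Hsd17b7 and Tm7sf2 at -0.12 and -0.10, without passing.

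None of the 6 genes of SREBP control and sterol transport passed between the vectors in the average, where 15.8% of all genes passed. Scap stood at 0.29 (SE 0.11), Srebf1 at 0.14 (SE 0.10), Srebf2 at 0.11 (SE 0.06), Insig1 at -0.02 (SE 0.09), Insig2 at -0.03 (SE 0.05) and Stard4 at -0.07 (SE 0.06), with adjusted p of 0.127 to 0.912. At an unadjusted p under 0.05 by limma, the average held 16 of all 32 members, against 6777 of all 20629 genes.

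Of the fatty acid genes, 3 of 9 were higher with miR-125b in the average and 0 lower, against 7.71% and 8.12% of all genes. Fasn, with levels of 0.31 and 0.39 in miR-125b and -0.07 and -0.14 in control cells without IL-7, and 0.44 and 0.73 in miR-125b and 0.20 and 0.14 in control cells with IL-7, differed by 0.43 (SE 0.08, adjusted p = 0.0203). Acaca differed by 0.42 (SE 0.09, adjusted p = 0.037) and Scd2 by 0.42 (SE 0.09, adjusted p = 0.0349). Fasn passed between the vectors and not on withdrawal, while Elovl6 (0.11, SE 0.11) and Fads1 (-0.06, SE 0.06) fell on withdrawal and did not pass between the vectors. Scd1 stood at 0.31 (SE 0.08, adjusted p = 0.0574), Acly at 0.11 and Fads2 at -0.04.

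Other genes around the pathways were read from lists. Of 4 further sterol synthesis genes tested, 4 fell on withdrawal in miR-125b and 3 in control cells, where 35.1% of all genes fell in each. In the average 2 of the 4 were higher with miR-125b, against 7.71% of all genes. Msmo1, the methylsterol oxidase that works beside Nsdhl, had levels of 5.25 and 5.19 in miR-125b and 4.57 and 4.45 in control cells without IL-7, and 5.94 and 5.83 in miR-125b and 5.17 and 5.14 in control cells with IL-7. It was higher by 0.72 (SE 0.06, adjusted p = 0.00325) in miR-125b cells and passed in each condition. The 10 isoprenoid genes use farnesyl diphosphate for dolichol, ubiquinone and protein prenylation. Of these, 5 fell on withdrawal in each cell type, against the same 35.1% of all genes. Nus1, a dolichol synthesis subunit, fell by 0.82 (SE 0.14) in miR-125b cells.

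Of the 5 genes of LXR and sterol efflux, 3 rose, 1 fell and 1 did not pass on withdrawal in each cell type, where 18.7% of all genes rose in miR-125b and 19.7% in control cells and 35.1% fell in each. Abca1, the sterol exporter, had levels of 1.94 and 1.78 in miR-125b and 1.24 and 1.15 in control cells without IL-7, and 0.01 and -0.51 in miR-125b and -0.39 and -0.38 in control cells with IL-7. All arrays without IL-7 lay above those with it, and the vectors were apart without IL-7 and overlapped with it. Abca1 rose by 2.10 (SE 0.17, adjusted p = 0.00162) in miR-125b cells and by 1.58 (SE 0.17, adjusted p = 0.0017) in control cells. Mylip, a ligase for lipoprotein receptors, rose by 0.92 (SE 0.16) in miR-125b cells and Nr1h3, which encodes LXR alpha, by 0.58 (SE 0.16). None of the 5 passed between the vectors in the average.

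Of 14 other fatty acid supply genes tested, 8 fell and 1 rose on withdrawal in each cell type. For this list and those below, 35.1% of all genes fell in each cell type, while 18.7% rose in miR-125b and 19.7% in control cells. In the average 4 of the 14 were higher and 1 lower with miR-125b, against 7.71% and 8.12% of all genes. Slc25a1, the citrate carrier that feeds Acly, had levels of 2.99 and 3.01 in miR-125b and 2.38 and 2.41 in control cells without IL-7, and 3.78 and 4.24 in miR-125b and 3.58 and 3.37 in control cells with IL-7. It fell on withdrawal by 1.01 (SE 0.16) in miR-125b and by 1.08 (SE 0.16) in control cells and was higher by 0.57 (SE 0.11, adjusted p = 0.0268) with miR-125b. Of the 11 fatty acid oxidation genes, 5 fell in miR-125b and 7 in control cells and 0 rose, and 0 passed between the vectors. Of 8 genes of SREBP processing and uptake, 3 fell and 1 rose in miR-125b and 2 fell and 2 rose in control cells, and of 6 storage genes 1 fell in each and 1 rose in control cells; 0 of either list passed between the vectors.

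**Figure D4:**
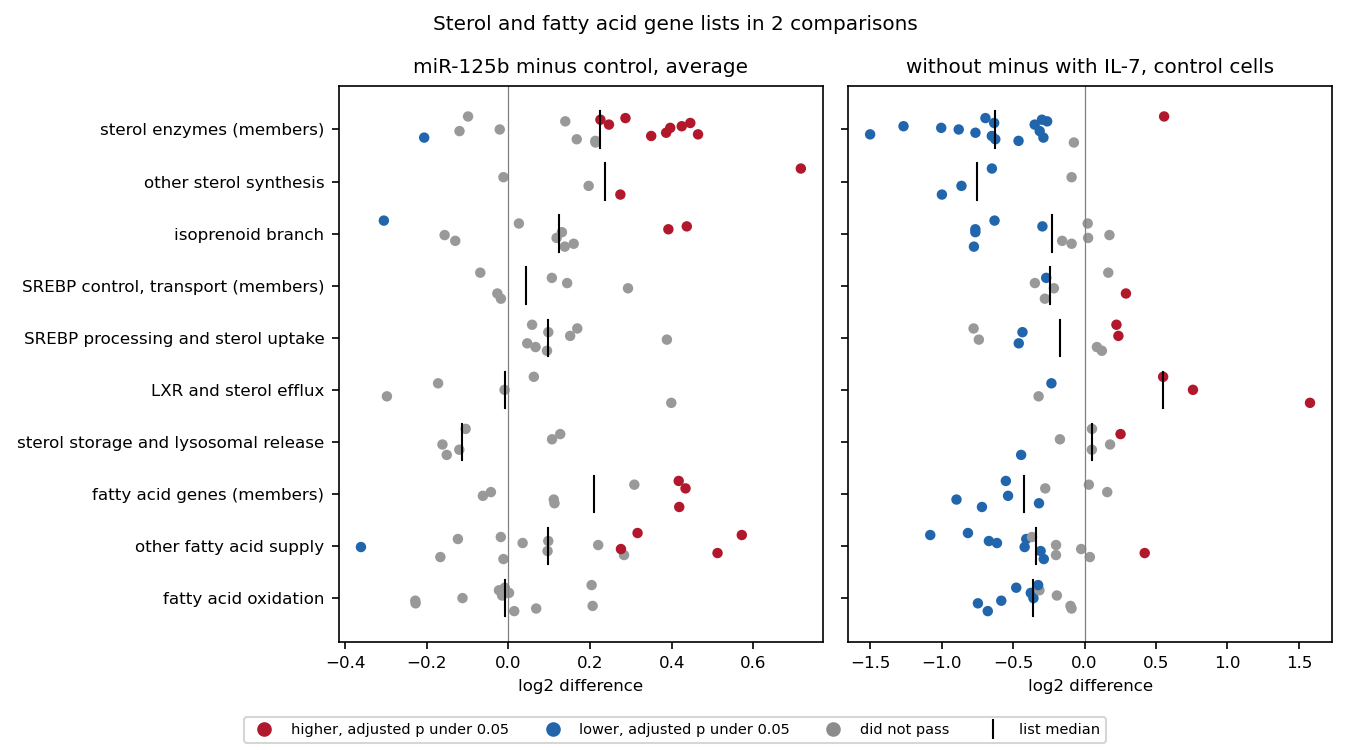
Log2 differences by gene for members and neighbouring lists, as the average of miR-125b minus control (left) and without minus with IL-7 in control cells (right), with black bars at each list's median. On the right the sterol enzymes lie mostly left of 0 and 3 of 5 genes of LXR and sterol efflux right of it; Elovl7 is left out.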

How the data were processed

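RNA of 8 samples (100 ng total RNA each) was read on single-colour Agilent arrays with 60-base probes. Per the file headers, the deposited scanner files hold processed signal, mean signal and background as intensity on a linear scale, and quality marks of another kind (other: 0 or 1). The headers name Agilent Feature Extraction 10.7.1.1 for arrays without IL-7 and 10.7.3.1 for those with it; per the submitters' processing notes it was 10.7.1.1. A table of intensity values deposited by the authors has a median of 21.8 in each column; its normalization is not given in the sources used here. The files hold 0 columns of other series.

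Of 62976 spots, 3671 controls were left out, spots of a probe averaged and 58 non-uniform probes dropped. Values were log2 processed signal minus the array's log2 75th percentile. Kept probes were those well above background on both arrays of a group, in 1 or more groups, and the brightest kept probe stood for a gene. Names were updated from RefSeq through the accession of 27235 probes, the symbol of 3581 and a synonym of 565; 24300 kept the name in the files. Between the slides' grid versions 14.3% of spots differ in name, among them 3 of the 48 member probes.

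Tests used limma 3.58.1 under R 4.3.3, a mean per group fitted to the 8 arrays together (4 residual degrees of freedom), Benjamini-Hochberg over all genes, two-sided. The script was tested on simulated data. The number of arrays limits the precision. The 18 alternatives were scaling to the median, quantile normalization, normexp (offset 50), the deposited table, 2 other filters, the mean of a gene's probes, a mean-variance trend, only the 4 arrays compared, a replicate block and leaving out each array. All 32 members were described; of each other list at most 3 genes were named, those that passed with the largest absolute difference. The members and lists were chosen with earlier results of these data known.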

Additional observations from a re-analysis of the deposited data

How the results depend on the processing

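With 2 arrays a group, counts of members passing moved with the setting, and so did the counts over all genes. Passing without IL-7 (3) became 2 with scaling to the median, 10 with quantile normalization, normexp or the deposited table, 0 with no filter on dim probes or only the 4 arrays compared, 7 with probes above background on all arrays, 1 with the mean of probes and 11 with a mean-variance trend. Passing with IL-7 (1) became 7 with normexp, 8 with probes above background on all arrays, 9 with the trend, and 0 with the other settings run. The average (13) became 4 with no filter on dim probes and 10 to 16 with the other whole-set settings. Leaving out 1 array gave 0 to 2 without IL-7, 0 to 0 with IL-7, 2 to 9 in the average, 21 to 24 for withdrawal in miR-125b cells and 13 to 24 in control cells. The withdrawal calls were otherwise 18 to 26 in miR-125b and 17 to 27 in control cells. In each of these comparisons, fewer of all genes also passed with 1 array left out than with all arrays. The difference of withdrawal responses had 0 members under each setting run.

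Signs turned in control cells on withdrawal for Acly (0.017 and 0.022), Ebp (0.050 and 0.054) and Pmvk (0.0073 and 0.0090) with quantile normalization and with the deposited table, for Insig2 (-0.036) with scaling to the median, and for Fdft1 (0.45, and -0.14 for miR-125b against control without IL-7) with the mean of probes; the cause was not tested. The labels do not say that equal replicate numbers share a clone, and deviations of same-numbered samples correlated at -0.10 to 0.12. With the replicate block 0 members passed without IL-7, 0 with IL-7, 10 in the average, 23 on withdrawal in miR-125b and 22 in control cells.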
